A study of Mus musculus with 4 samples.

Results

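Transcripts of 8 enzymes of cholesterol and fatty acid synthesis were measured in spleens of female mice that lack the transcription factor Nrf2 and in spleens of their wild-type littermates. The enzymes were chosen by gene symbol: every probe set annotated to Hmgcs1, Idi1, Fdps, Sqle, Acly, Fasn, Scd1 or Scd2 was taken. All 8 were among the 8251 genes named on the array, with 14 of its 12488 probe sets. Of these 14, 11 were bright enough to test, and they covered all 8 genes.

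Total RNA of whole spleen was hybridised to 4 one-colour expression arrays, 2 from nrf2 -/- (knockout) mice and 2 from nrf2 +/+ (wild-type) mice. The mice were 5 months of age, which per the labels precedes severe autoimmune disease. Both genotypes were born to heterozygous parents of a cross between nrf2 -/- mice (C57B6/129SVJ) and nrf2 +/+ mice (C57B6/SJL), so the strain background was mixed in both groups. The labels do not say which part of the gene was removed, nor whether an array held RNA of 1 mouse or of a pool. What the p-values weigh is therefore the scatter among these 4 samples, and part of it may be technical.

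Cholesterol and fatty acids are both built from cytosolic acetyl-CoA, which Acly (ATP citrate lyase) makes from citrate. In the sterol branch, Hmgcs1 and the steps after it lead through mevalonate and isoprenoids to squalene and then cholesterol. In the fatty acid branch, Fasn makes palmitate and the Scd enzymes put a double bond into saturated fatty acids. The genes of both branches are induced by the SREBP transcription factors, SREBP-2 mainly in the sterol branch and SREBP-1 mainly in the fatty acid branch. Nrf2 induces genes of detoxification, antioxidant defence and NADPH supply, and both Fasn and Sqle consume NADPH.

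The genotype was visible in the targeted gene. The transcript of Nrf2 itself, Nfe2l2, gave intensities of 202 and 178.6 in knockout spleens, against 3537 and 6321 in wild-type spleens (log2 difference -4.61, SE 0.47, limma adjusted p = 0.0226). For the fit, values under 185, the 25th percentile of all deposited values, were raised to that floor, which touched Nfe2l2 in knockout replicate 2. Wild-type replicate 1 stood apart from the other 3 arrays over all tested probe sets, with Pearson's r of 0.845 to 0.848 to them, where those 3 correlated with each other at 0.936 to 0.946. Gapdh control probes at both transcript ends serve as a check of RNA integrity, and their 3' signal over their 5' signal was 25.5 and 34.8 in knockout replicates 1 and 2, against 88.3 and 8.07 in wild-type replicates 1 and 2. For beta-actin the ratio was 19.3 and 16.1 in the knockout arrays, against 14.4 and 8.86 in the wild-type arrays. Each result on the 8 enzymes is therefore given with all arrays and without wild-type replicate 1.

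None of the 8 enzymes passed the limma test for a difference between knockout and wild-type spleen. Fdps 99098_at and Scd2 162077_f_at differed by more than the gaps between arrays of a genotype. The limma standard errors also draw on the spread of other probe sets. Of their 11 tested probe sets, 0 had a limma adjusted p under 0.05 and 0 an unadjusted p under 0.05. Over all 7452 tested probe sets, 0.0537% passed the adjusted threshold (4 probe sets, Nfe2l2 among them) and 1.78% had an unadjusted p under 0.05. The log2 differences of the 11 probe sets, knockout minus wild type, ran from -0.57 for Fdps to 1.08 for Scd2. Their median was 0.24, against 0.04 for all tested probe sets. The standard errors of the 11 lay between 0.38 and 0.74, and over all tested probe sets a log2 difference of 1.06, slightly more than doubling or halving, would at the median standard error have reached an unadjusted p of 0.05. The limit was lower for probe sets with a smaller standard error, such as those of Fdps, and higher for those with a larger one, such as Scd2 95758_at. To pass the adjusted threshold a larger difference was needed, so a doubling could have been missed.

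**Figure D1:**
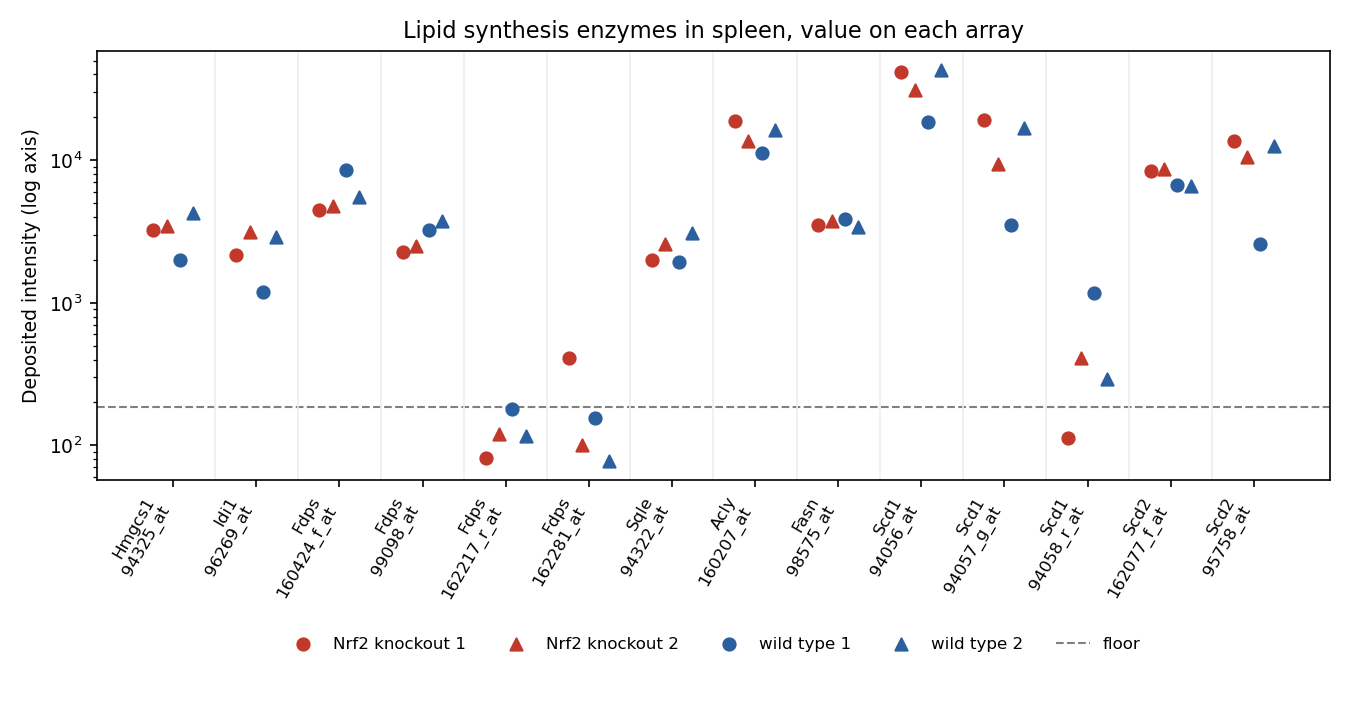
Deposited intensity (log axis) of each of the 14 probe sets on each array, with knockout arrays in red left of wild-type arrays in blue, circles for replicate 1 and triangles for replicate 2. The dashed line is the floor of 185, and wild-type replicate 1 lies below the other 3 arrays in 7 of the 11 tested probe sets.

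In the sterol branch, the 4 enzymes did not share a direction. Hmgcs1, the cytosolic HMG-CoA synthase that acts early in the mevalonate route, read 3249.5 and 3457 in knockout spleens, against 2010 and 4244 in wild-type spleens. Both knockout values lay between the wild-type values. The log2 difference was 0.20 (SE 0.46, 95% confidence interval -0.88 to 1.27, limma adjusted p = 0.992), and without wild-type replicate 1 it was -0.34.

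Idi1, the isomerase that makes dimethylallyl diphosphate, read 2178 and 3165 in knockout spleens, against 1196 and 2896 in wild-type spleens. Wild-type replicate 1 was the lowest array and the other 3 overlapped in range. Idi1 differed by 0.50 on the log2 scale (SE 0.51, interval -0.69 to 1.68, limma adjusted p = 0.992), and -0.14 without wild-type replicate 1.

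Sqle, squalene epoxidase, catalyses the first oxygen-dependent step towards sterols. It read 1993 and 2572 in knockout spleens, against 1934 and 3111 in wild-type spleens, so both knockout values again lay between the wild-type values. Sqle differed by -0.12 on the log2 scale (SE 0.42, interval -1.09 to 0.86, limma adjusted p = 0.992), and -0.46 without wild-type replicate 1.

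Fdps, farnesyl diphosphate synthase, makes the isoprenoid at which the routes to sterols and to other isoprenoids part. It was the one enzyme whose tested probe sets both separated the genotypes, and both were lower in knockout spleen. Probe set 99098_at read 2282 and 2506 in knockout spleens, against 3257 and 3762 in wild-type spleens. Its log2 difference was -0.55 (SE 0.38, interval -1.43 to 0.33, unadjusted p = 0.185, limma adjusted p = 0.992).

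The second tested Fdps probe set, 160424_f_at, carries a name that marks possible cross-hybridisation. It read 4477 and 4798.5 in knockout spleens, against 8527 and 5516 in wild-type spleens, a log2 difference of -0.57 (SE 0.42, interval -1.53 to 0.40, limma adjusted p = 0.992). The arrangement within wild type differed between these probe sets: replicate 1 was the higher array on 160424_f_at and the lower one on 99098_at. Without wild-type replicate 1 the log2 difference was -0.25 on 160424_f_at and -0.65 on 99098_at. With wild-type replicate 2 left out instead, it was -0.88 on 160424_f_at and -0.45 on 99098_at.

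A pair of further Fdps probe sets was too dim to test. Probe set 162217_r_at stayed under the floor of 185 on all 4 arrays, at 81.3 and 120.7 in knockout spleens, against 181.4 and 115.5 in wild-type spleens. Probe set 162281_at read 409.5 and 100.3 in knockout spleens, against 156.9 and 78.2 in wild-type spleens, with 3 arrays under the floor and overlapping genotypes.

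Both knockout arrays lay below both wild-type arrays in 2 of the 11 tested probe sets (18.2%), the 2 of Fdps, which share their gene. Over all tested probe sets this share was 12.2%. Both knockout arrays lay above both wild-type arrays in 1 of 11 (9.09%), a Scd2 probe set, against 14.2% of all tested probe sets. The counts for the enzymes were thus near those of the whole array.

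Acly and the fatty acid enzymes gave 5 probe sets with a positive and 1 with a negative difference. Acly read 18879 and 13589 in knockout spleens, against 11177 and 16359 in wild-type spleens, with overlap. Acly differed by 0.24 on the log2 scale (SE 0.44, interval -0.78 to 1.26, limma adjusted p = 0.992), and -0.030 without wild-type replicate 1.

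Fasn, the fatty acid synthase, was the most even of the 8 over the arrays. It read 3527.5 and 3749 in knockout spleens, against 3903 and 3407 in wild-type spleens. The highest array was 1.15 times the lowest, whereas the median of this ratio over all tested probe sets was 1.91. Between genotypes Fasn differed by -0.0039 on the log2 scale (SE 0.38, interval -0.89 to 0.88, limma adjusted p = 0.999), and 0.094 without wild-type replicate 1.

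Scd1, the stearoyl-CoA desaturase that is the major form in mouse liver and fat, is measured by 3 probe sets. Probe set 94056_at read 41489 and 31021 in knockout spleens, against 18501 and 42819 in wild-type spleens. Both knockout values lay between the wild-type values. The log2 difference was 0.35 (SE 0.52, interval -0.86 to 1.56, limma adjusted p = 0.992), and -0.26 without wild-type replicate 1.

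The related Scd1 probe set 94057_g_at gave the same order of arrays for the wild-type pair but a wider range, at 19080 and 9468 in knockout spleens, against 3511 and 16761 in wild-type spleens. Its log2 difference was 0.81 (SE 0.74, interval -0.91 to 2.52, limma adjusted p = 0.992), and -0.32 without wild-type replicate 1. The remaining one, 94058_r_at, was too dim to test, at 111.9 and 409.1 in knockout spleens, against 1178 and 293.7 in wild-type spleens. On it wild-type replicate 1 was the highest array, whereas on the other Scd1 probe sets it was the lowest. The names of 94057_g_at and 94058_r_at mark possible cross-hybridisation.

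Scd2 is the second stearoyl-CoA desaturase, known in mouse for expression in brain and many other tissues. Its probe set 95758_at had the largest difference of the 11. It read 13754 and 10579 in knockout spleens, against 2591 and 12650 in wild-type spleens, so wild-type replicate 1 was far below the other 3 and the genotypes overlapped. The log2 difference was 1.08 (SE 0.71, interval -0.56 to 2.71, limma adjusted p = 0.992). Without wild-type replicate 1 it was -0.069, and with that array as the only wild-type one it was 2.22 (limma adjusted p = 0.0599).

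The other Scd2 probe set, 162077_f_at, whose name marks possible cross-hybridisation, did not show the low wild-type array. It read 8432 and 8748 in knockout spleens, against 6750 and 6566 in wild-type spleens. Arrays of a genotype lay close together and the genotypes did not overlap. The log2 difference was 0.37 (SE 0.39, interval -0.54 to 1.27, unadjusted p = 0.375, limma adjusted p = 0.992), with 0.39 when wild-type replicate 1 was left out and 0.35 when wild-type replicate 2 was. For Scd2 the ratio of wild-type replicate 1 to the median of the other arrays was thus 0.205 on one probe set and 0.801 on the other.

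**Figure D2:**
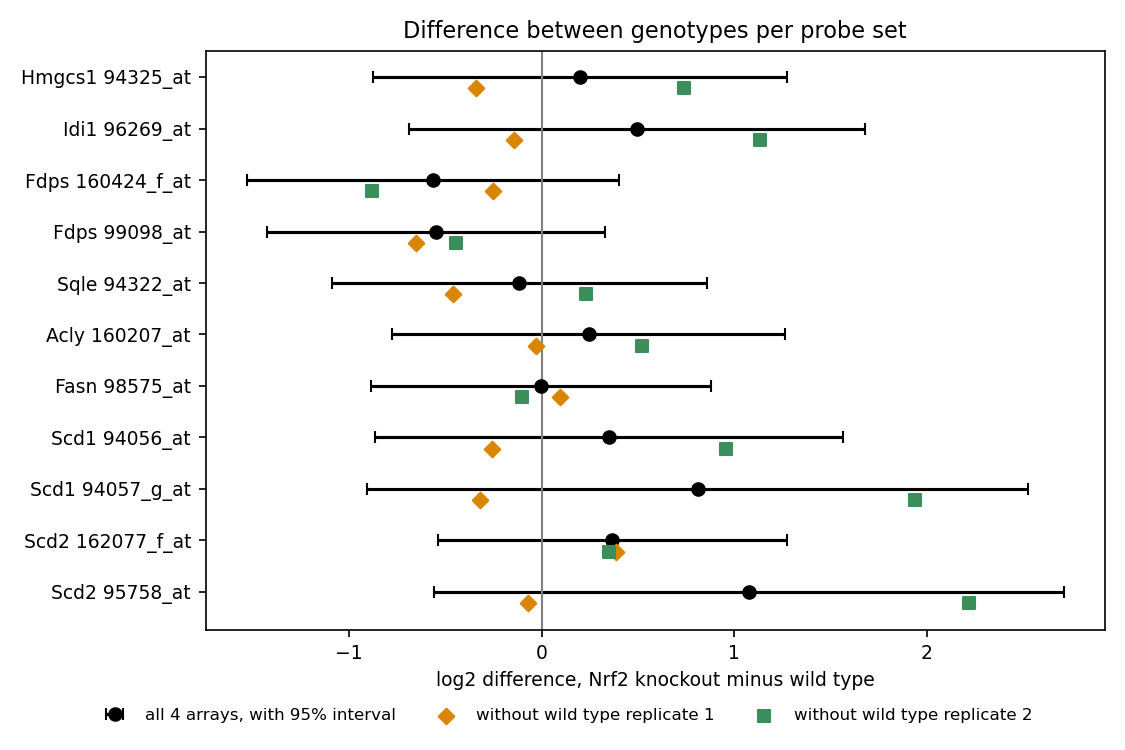
Log2 difference, knockout minus wild type, of the 11 tested probe sets. Black points with bars are the fit of all 4 arrays with 95% confidence intervals, all of which include 0, orange diamonds leave out wild-type replicate 1 and green squares leave out wild-type replicate 2.

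Which wild-type array was used set the direction of most of these differences. With all arrays, 7 of the 11 probe sets measured higher and 4 lower in knockout spleen. Without wild-type replicate 1, 2 measured higher (Fasn and Scd2 162077_f_at) and 9 lower, with a median of -0.25, while the median of all tested probe sets was 0.0054 and 49.2% of them measured lower. Without wild-type replicate 2, 8 measured higher and 3 lower, with a median of 0.52 against 0.012 for all tested probe sets. The direction was kept without either wild-type array for both Fdps probe sets, which were lower, and for Scd2 162077_f_at, which was higher. None of these 3 passed the limma test in any of these fits.

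Wild-type replicate 1 was the lowest of the 4 arrays in 7 of the 11 tested probe sets (63.6%), against 39.3% of all tested probe sets. These 7 were Hmgcs1, Idi1, Sqle, Acly, both tested Scd1 probe sets and Scd2 95758_at. It was the highest array in 2 of the 11, Fdps 160424_f_at and Fasn, against 37.4% of all tested probe sets. Its ratio to the median of the other 3 arrays was 0.413 for Idi1, 0.581 for Hmgcs1, 0.446 and 0.209 for Scd1 and 0.752 for Sqle. The ratio was 1.78 and 1.30 for the tested Fdps probe sets and 1.11 for Fasn. This array also had the highest Gapdh ratio of the 4, but its beta-actin ratio, 14.4, was below the 19.3 and 16.1 of the knockout arrays. The part of RNA quality in these values was not tested.

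**Figure D3:**
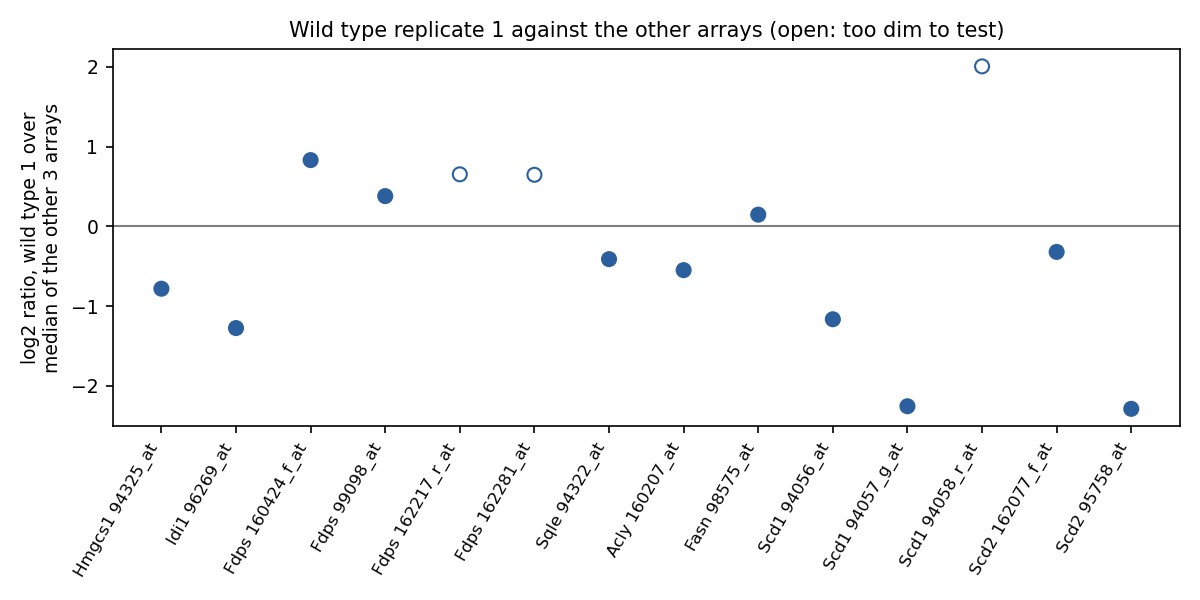
Log2 ratio of the intensity in wild-type replicate 1 to the median of the other 3 arrays for each of the 14 probe sets. Filled points were tested, open points were too dim, and probe sets of Scd1 and of Scd2 spread from near -2.3 upward while those of Fdps lie above 0.

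The mean log2 profile of the 8 enzymes, with the brightest tested probe set of each, stood at 0.11 and 0.10 in the knockout arrays, against -0.50 and 0.29 in the wild-type arrays. The genes nearest to this profile were Traf5, Lrrn1 and Eif1ax, each with Pearson's r of at least 0.9998 over the 4 arrays. Traf5, an adaptor of TNF receptors, read 5575 and 5546 in knockout spleens, against 3068 and 6622 in wild-type spleens. With only 4 arrays such likeness was common: 158 of 4024 probe sets with at least the same range had r above 0.99.

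Promoter sequences were available for 4 of the 8 genes in the RefSeq table of GRCm38.p6: Hmgcs1, Idi1, Fasn and Acly. Those of Hmgcs1 and Idi1, which were both lowest in wild-type replicate 1, are printed beside that of Fasn, which hardly varied. That of Acly, which was also lowest in wild-type replicate 1, is not printed. Each is the 250 bases before the gene start, 5' to 3' on the gene's strand. Hmgcs1 lies at chr13:119690101-119690350 (plus strand), Idi1 at chr13:8885356-8885605 (plus strand) and Fasn at chr11:120824548-120824797 (minus strand). Capitals mark matches on either strand to CCAAT, the NF-Y box, and to TCACNCCAC, the core of the sterol regulatory element that SREBP binds.
Hmgcs1: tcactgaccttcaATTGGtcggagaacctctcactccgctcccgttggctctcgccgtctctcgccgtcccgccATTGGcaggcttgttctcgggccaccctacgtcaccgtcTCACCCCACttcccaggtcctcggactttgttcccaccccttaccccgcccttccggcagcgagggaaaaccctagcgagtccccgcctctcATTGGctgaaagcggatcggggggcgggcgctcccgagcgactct
Idi1: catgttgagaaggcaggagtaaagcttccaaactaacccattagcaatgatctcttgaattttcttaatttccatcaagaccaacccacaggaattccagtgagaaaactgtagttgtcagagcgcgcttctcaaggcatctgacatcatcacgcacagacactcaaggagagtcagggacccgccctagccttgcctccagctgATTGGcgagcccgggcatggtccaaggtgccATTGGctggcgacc
Fasn: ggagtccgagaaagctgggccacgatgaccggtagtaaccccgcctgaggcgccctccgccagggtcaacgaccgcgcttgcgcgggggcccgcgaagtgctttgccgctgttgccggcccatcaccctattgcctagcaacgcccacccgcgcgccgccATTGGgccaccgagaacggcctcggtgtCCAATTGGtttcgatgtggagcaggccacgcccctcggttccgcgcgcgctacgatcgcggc

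Hmgcs1 held 1 sterol regulatory element, from 137 to 129 bases before the start, and 3 CCAAT boxes. Idi1 held 2 CCAAT boxes and Fasn 3, of which 2 overlap on opposite strands, and Acly held none. The sterol element was found in 1.05% and the CCAAT box in 33.8% of all 32851 promoter windows of this length. The core of the antioxidant response element bound by Nrf2, TGACNNNGC, was in none of the 4 windows and in 10.2% of all windows. By gene, this core was in 3 of 14 other cholesterol synthesis enzymes (21.4%) and in 2 of 17 other fatty acid enzymes (11.8%), against 11.5% of all genes. Among the other cholesterol synthesis enzymes with a window, 13 of 14 genes held a CCAAT box in at least 1 window, against 37.5% of all genes, and 0 of 14 held the sterol element. Of the other fatty acid enzymes, 8 of 17 held a CCAAT box and 0 of 17 the sterol element. These matches describe letters in short windows and not binding.

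The other genes of sterol and fatty acid metabolism also showed no difference past the threshold. In 5 further lists, 41 probe sets of 36 genes were tested, and 0 had a limma adjusted p and 0 an unadjusted p under 0.05. Of the 41, 22 measured higher and 19 lower in knockout spleen, with a median of 0.0095. Wild-type replicate 1 was the lowest array in 17 of the 41 and the highest in 17.

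Other cholesterol synthesis enzymes measured higher in 4 and lower in 9 of 13 probe sets, with a median of -0.26. Fdft1, squalene synthase, follows Fdps in the pathway and read 1436 and 1451 in knockout spleens, against 704.4 and 1724 in wild-type spleens. Its arrays had the order seen in Hmgcs1, with wild-type replicate 1 lowest and wild-type replicate 2 highest, and its log2 difference was 0.39 (SE 0.51, limma adjusted p = 0.992). Dhcr7, which catalyses the last step of one route to cholesterol, read 650 and 317.2 in knockout spleens, against 703.3 and 556.4 in wild-type spleens (log2 -0.46, SE 0.60). The sterol reductase gene Tm7sf2 differed by -0.78 (SE 0.81) on one probe set, where knockout replicate 1 at 200.2 set it apart from 677.5 to 1099 on the other arrays, and by -0.26 on the other. Ggps1, which makes geranylgeranyl diphosphate, differed by -0.36 (SE 0.54) on one probe set and by 0.022 (SE 0.50) on the other.

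Other enzymes of fatty acid synthesis measured higher in 5 and lower in 2 of 7 probe sets, with a median of 0.13. Thrsp, a lipogenesis-linked gene of liver and fat, was lower in both knockout arrays, at 478.4 and 764.9, against 1036 and 1307 in wild-type spleens. Its log2 difference was -0.94 (SE 0.48, interval -2.05 to 0.17, unadjusted p = 0.0853, limma adjusted p = 0.992). The elongase gene Elovl5 read 10347 and 11088 in knockout spleens, against 2414 and 13459 in wild-type spleens, a single low wild-type array as for Scd2 95758_at. Elovl1 differed by -0.30 (SE 0.41), and Me1, the NADPH-making malic enzyme and a known Nrf2 target, by 0.17 (SE 0.46, limma adjusted p = 0.992). Elovl6 was too dim to test and read 474.4 and 458.8 in knockout spleens, against 349.1 and 420.7 in wild-type spleens, on the probe set of the pair that was above the floor on every array.

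Among regulators, 4 probe sets measured higher and 2 lower, with a median of 0.07. Srebf1, which encodes SREBP-1, was nearly level, at 5154 and 5365 in knockout spleens, against 5740 and 4754 in wild-type spleens (log2 0.0095, SE 0.39, limma adjusted p = 0.999). Nr1h3, the sterol-sensing receptor LXR alpha, read 12822 and 6442 in knockout spleens, against 16965 and 7396 in wild-type spleens, and the arrays of a genotype differed more than the genotypes did. Mlx differed by 0.29 and Mbtps1 by 0.26. The tested Rxra probe sets did not share a direction, at -0.24 (SE 0.45) and 0.14 (SE 0.46). Insig1, a sterol-responsive brake on SREBP processing, was under the floor on all 4 arrays, at 147.7 and 131.9 in knockout spleens, against 17.1 and 34.1 in wild-type spleens.

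Genes of cholesterol export and storage gave 4 higher and 2 lower probe sets, with a median of 0.53, the highest of the 5 lists. Against wild-type replicate 2 alone the median was 0.0050. Both knockout arrays lay above both wild-type arrays in 3 of the 6 probe sets and below them in 2. Over all tested probe sets these shares were 14.2% and 12.2%. None of the 6 had an unadjusted limma p under 0.05. Scarb1, the scavenger receptor for high-density lipoprotein, read 2687 and 2842 in knockout spleens, against 899.6 and 2300 in wild-type spleens, without overlap (log2 0.94, SE 0.51, limma adjusted p = 0.992). The sterol exporter gene Abcg1 read 8517 and 5722.5 in knockout spleens, against 2809 and 5621 in wild-type spleens (log2 0.81, SE 0.48, limma adjusted p = 0.992). Against wild-type replicate 2 alone, the mean log2 difference was 0.27 for Scarb1 and 0.31 for Abcg1. Abca1 differed by 0.72 and Apoe by -0.63, and Abca1 was lowest in wild-type replicate 1.

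Fatty acid oxidation genes were split, with 5 higher and 4 lower probe sets and a median of 0.0035. Acadm, medium-chain acyl-CoA dehydrogenase, read 4754 and 5387 in knockout spleens, against 3272 and 3818 in wild-type spleens (log2 0.52, SE 0.39, limma adjusted p = 0.992). Cpt1a, which admits fatty acids to mitochondria, differed by 0.52 (SE 0.45), Hadhb by 0.78 (SE 0.67) and Acaa1a by -0.55 (SE 0.54). Acadm and Cpt1a did not overlap between genotypes, while Hadhb and Acaa1a did. Of the 9 probe sets, both knockout arrays lay above both wild-type arrays in 2 and below them in 1. Over all tested probe sets these shares were 14.2% and 12.2%.

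**Figure D4:**
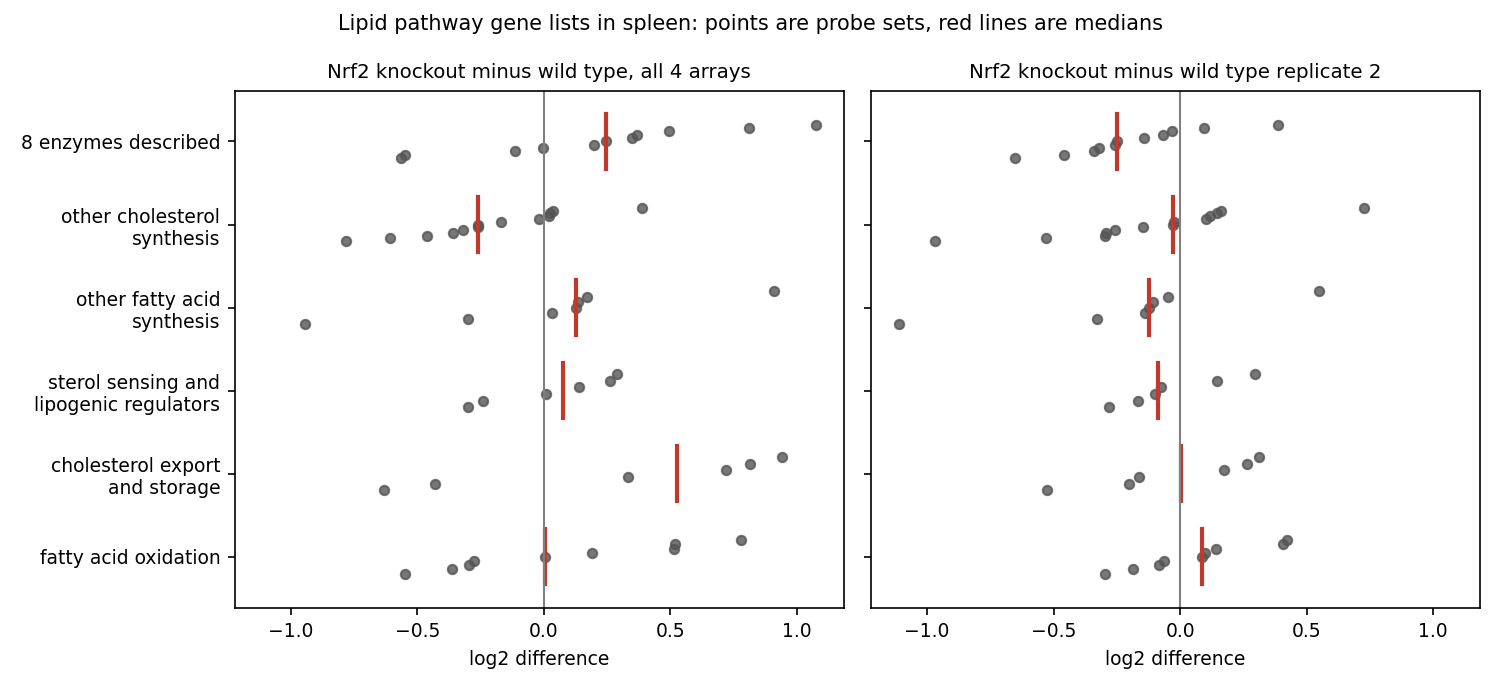
Log2 differences of single probe sets (points) and list medians (red lines) for the 8 enzymes and 5 further lists of lipid genes, knockout minus wild type with all 4 arrays on the left and knockout minus wild-type replicate 2 on the right. The median of the 8 enzymes is 0.24 on the left and -0.25 on the right.

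Spleen holds several cell types, and in bulk RNA fewer cells of a type cannot be told apart from less RNA per cell. Fat tissue is rich in Scd1, Fasn and Acly, so adipocyte markers were read beside them: 10 of 12 listed genes were on the array, with 12 probe sets. Their summed intensity was 16881 and 8848 in knockout spleens, against 15010 and 11961 in wild-type spleens, which overlapped. The adipocyte hormone gene Adipoq read 374.4 and 230.1 in knockout spleens, against 677.4 and 798.8 in wild-type spleens, without overlap. Lipe was also lower in both knockout arrays, at 749.4 and 520.9, against 957.9 and 973.1 in wild-type spleens. The Lpl probe sets differed by -0.15 and -0.52 on the log2 scale, with overlap. Lep, the gene of the hormone leptin, went the other way on its tested probe set, at 2926 and 2659 in knockout spleens, against 2443 and 1675.5 in wild-type spleens. The fatty acid carrier gene Fabp4 was also higher in both knockout arrays, at 773.5 and 578.3, against 476.5 and 547.2 in wild-type spleens. Pparg, a regulator of fat cell formation, read 1315 and 612.7 in knockout spleens, against 129.2 and 717.3 in wild-type spleens, with overlap. The lipid droplet gene Cidec was under the floor on all 4 arrays. Of the 7 tested probe sets, 3 measured higher and 4 lower, and none passed.

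The other 7 marker lists are given beside these values, and their part in the values of the enzymes was not tested. Summed B cell markers (9 probe sets) were 193783 and 167337 in knockout spleens, against 334465 and 202946 in wild-type spleens, and 8 of 9 measured lower in knockout spleen. T cell markers (8 probe sets) summed to 32027 and 26074 in knockout spleens, against 49714 and 36452 in wild-type spleens, and 6 of 7 tested measured lower. Both lymphocyte sums were thus lower in both knockout arrays. Pancreas markers (10 probe sets) summed to 10045 and 11093 in knockout spleens, against 83057 and 22206 in wild-type spleens, and 7 of 8 tested measured lower. Hepatocyte markers (8 probe sets) summed to 1789 and 1713 in knockout spleens, against 2883 and 8524 in wild-type spleens, and both tested probe sets measured lower. Both organ sums were thus also lower in both knockout arrays.

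Summed intensities of the other 3 lists overlapped between genotypes. Neutrophil markers (10 probe sets) summed to 396994 and 457461 in knockout spleens, against 527970 and 133703 in wild-type spleens. By probe set, however, all 10 neutrophil markers measured higher in knockout spleen, with a median log2 difference of 1.001. Both knockout arrays lay above both wild-type arrays in 6 of these 10, against 14.2% of all tested probe sets. An unadjusted limma p under 0.05 was found in 3, against 1.78% of all, and an adjusted one in 0. The size of this difference depended on the wild-type array. Against wild-type replicate 2 alone the neutrophil median was 1.96, while wild-type replicate 1 was the highest array in 2 of the 10. S100a8 read 140070 and 148493 in knockout spleens, against 265039 and 61459 in wild-type spleens. Among tested pancreas markers, both knockout arrays lay below both wild-type arrays in 7 of 8, and 6 had an unadjusted limma p under 0.05. For B cell markers these counts were 6 and 1 of 9, and for T cell markers 4 and 2 of 7. Over all tested probe sets 12.2% lay below. Erythroid markers (6 probe sets) summed to 18779 and 99813 in knockout spleens, against 92281 and 89189 in wild-type spleens, and all 5 tested measured lower, each lowest in knockout replicate 1. Proliferation markers (10 probe sets) summed to 72369 and 153246 in knockout spleens, against 132104 and 117395 in wild-type spleens, with 4 tested probe sets higher and 4 lower. In none of the 8 marker lists was wild-type replicate 1 the lowest array by summed intensity. The 14 probe sets of the lipid enzymes summed to 119944 and 94283 in knockout spleens, against 64875 and 118580 in wild-type spleens, with wild-type replicate 1 lowest. It was also lowest for the other enzymes of fatty acid synthesis (12 probe sets). These summed to 21221 and 23264.5 in knockout spleens, against 13462 and 25212 in wild-type spleens. Most of that gap lay in Elovl5, which read 10347 and 11088 in knockout spleens, against 2414 and 13459 in wild-type spleens. By probe set, wild-type replicate 1 was the lowest array in 3 of the 7 tested in this list. In the remaining wider lists of lipid genes it was not the lowest array by summed intensity.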

How the data were processed

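The deposited values are linear 1-colour probe-set intensities, 1 per probe set and array, with the authors' software and scaling not given in the sources used here. Array means trimmed by 2% were 2501.5 to 2502.0, so the intensities were used as deposited. Values under the pooled 25th percentile, 185, were raised to it, log2 was taken, 66 control probe sets were left out, and the 7452 probe sets with a mean above the 40th percentile were tested. A fold on this scale understates the difference of dim genes. Gene symbols came from the platform annotation, updated through gene identifiers against GRCm38.p6: 10833 probe sets had 1 symbol, of which 10817 matched, 396 had several and 1193 none.

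Knockout was compared with wild type with limma 3.58.1 in R 4.3.3 (lmFit, then eBayes with the variance trended on intensity; prior degrees of freedom 5.79). Tests were two-sided and adjusted by Benjamini-Hochberg over all 7452 probe sets. The number of arrays limits the precision. The procedure was tested on simulated data. Python 3.11.15 with matplotlib 3.10.9 made the figures.

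The enzymes, the gene lists and the tests were chosen with earlier results of these data known. Named genes were all probe sets of the 8 enzymes, up to 4 genes of each wider list by smallest p, further regulators and enzymes where measured, and the 3 genes nearest to the mean profile. Some genes that the rule lists are not reported here. Alternatives covered scaling, floor, pseudocount, filter, variance trend, replicate block, each array left out and cross-hybridising probe sets.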

Additional observations from a re-analysis of the deposited data

How the results depend on the processing

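No alternative brought a probe set of the 8 enzymes, or of the 5 wider lists, under an adjusted p of 0.05. The lowest adjusted p among the enzymes was 0.0599, for Scd2 95758_at without wild-type replicate 2. The count over all tested probe sets, 4, was 0 without the filter, 2 without cross-hybridising probe sets, 36 with the replicate block, and 0 to 12 with 1 array left out, being 0 without wild-type replicate 1. A lone array of a group is there assumed to vary like the others. The labels do not pair samples by replicate number, and the deviations of same-numbered arrays correlated at 0.04. The signs of the 11 probe sets held under both scalings and under the other floor, pseudocount, filter, trend and block settings. They did not all hold with 1 array left out. The difference then ran from -0.030 to 0.52 for Acly, from -0.34 to 0.74 for Hmgcs1, from -0.14 to 1.13 for Idi1 and from -0.46 to 0.23 for Sqle. It ran from -0.26 to 0.96 for Scd1 94056_at, from -0.32 to 1.94 for Scd1 94057_g_at and from -0.069 to 2.22 for Scd2 95758_at, each lowest without wild-type replicate 1. For Fasn it ran from -0.10 to 0.094. The cause was not tested. Probe sets near the floor of 185 give only bounds, and 3 of the 14 were too dim to test.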
